A study of Nicotiana benthamiana with 9 samples.

Results

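Values were given for 56094 assembled scaffolds and contigs of the tobacco relative Nicotiana benthamiana. After 1 h at 37 °C, 87 of them held far smaller shares of the leaf reads than in mock plants. Wounding left these 87 near the mock level, within the band given below. The 87 were chosen on group means of the deposited CPM values, a read count scaled for library size, with 0.5 added to each mean. CPM is relative to the other reads of a library, so absolute RNA was not measured. A sequence belonged if its mock mean was at least 5 CPM, its heat to mock ratio was at most 0.33, its wound to mock ratio lay above 0.67 and below 1.5, and every heat library was below every mock library. These values fixed the direction and the least size of the fall, so the levels below describe the selection and are given without a test.

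The libraries were made from leaves of soil-grown plants 5 weeks old, with 3 biological replicates in each of 3 groups. Mock plants stayed unwounded at 23 °C, heat-treated plants were moved to 37 °C, and wounded plants had leaves cut with scissors and stayed at 23 °C, each for 1 h. No genotype, transgene or agent separates the groups in the labels, and mock is the control of both treatments. Every deposited value covers a scaffold or contig from position 1 to its end, which may pool reads of several genes. The table pairs none of them with a gene, so no gene name or role is given and leaf identity was not checked against marker genes. Sequence names begin with Niben101; neither an aligner nor a way of handling strand and reads with several matching places is stated by the labels or headers. This plant carries a doubled genome, and how reads were divided between near-identical copies is therefore uncertain for every sequence named here. Total counts lay between 13846165 and 17480792 per library.

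As background, a plant leaf moved to a damaging temperature makes heat shock proteins through heat shock transcription factors, while transcripts of many other genes decline through less synthesis, faster decay or both. Wounding is known to act largely through jasmonate signalling. The level of an RNA in a leaf extract does not separate synthesis from decay. In whole leaves, fewer cells of a type and less RNA per cell cannot be told apart either.

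Among sequences that passed the level limit, the heat limit removed most. Of 7158 sequences with a mock mean of at least 5 CPM, 145 had a heat to mock ratio of at most 0.33, which is 2.03% of them. Wounded libraries were outside the allowed band in 58 of those 145: the ratio was 0.67 or less in 33 and 1.5 or more in 25. The remaining 87 all had heat libraries below mock libraries already, a separation that 30.1% of the 7158 showed. The members sit in a strip below the bulk of the sequences in the plot of heat against wound ratios.

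**Figure D1:**
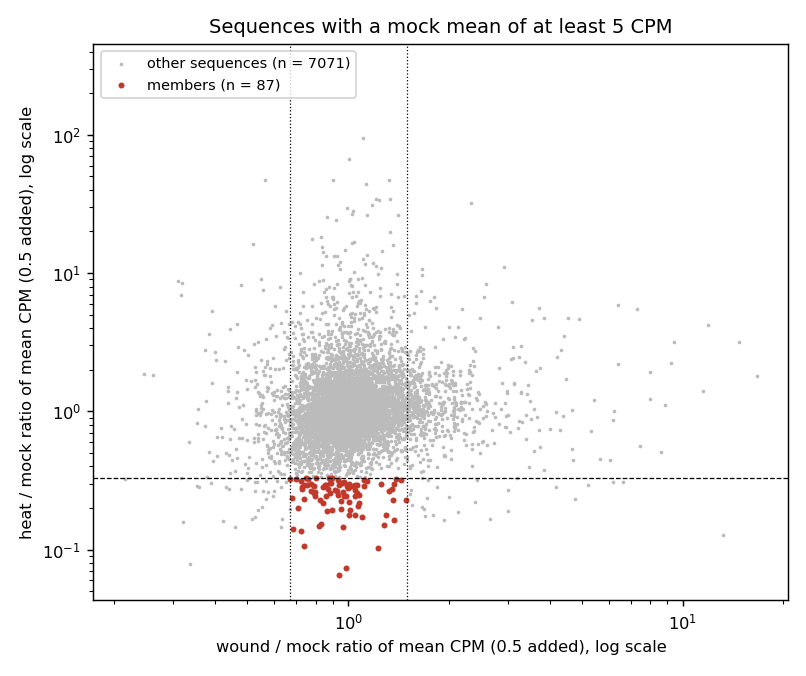
Heat to mock ratio against wound to mock ratio of the group mean CPM (0.5 added, both axes log) for the 7158 sequences with a mock mean of at least 5 CPM. The dashed line marks the heat limit of 0.33 and dotted lines mark the wound band of 0.67 to 1.5; the 87 members (red) fill the area that these lines bound, with heat ratios down to 0.0658.

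Heat to mock ratios of the members ran from 0.0658 to 0.329 with a median of 0.266. A ratio of 0.15 or less was seen in 8 members, one above 0.15 up to 0.2 in 11, above 0.2 up to 0.25 in 18, above 0.25 up to 0.3 in 32, and above 0.3 in 18. The set thus crowds toward its limit, with 50 of 87 above 0.25. The lowest mock library exceeded the highest heat library by at least 2 times in 80 of the 87, with a median of 2.8 times and a range of 1.58 to 9.98. In edgeR's quasi-likelihood test, fitted over all 9645 sequences that passed its filter on low counts, all 87 members were tested and all 87 were called lower after heat, against 22.8% of all tested. Nothing follows from that count, since the rule used the same libraries. Their median fitted log2 fold change was -2.03, beside 0.01 over all tested sequences.

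**Figure D2:**
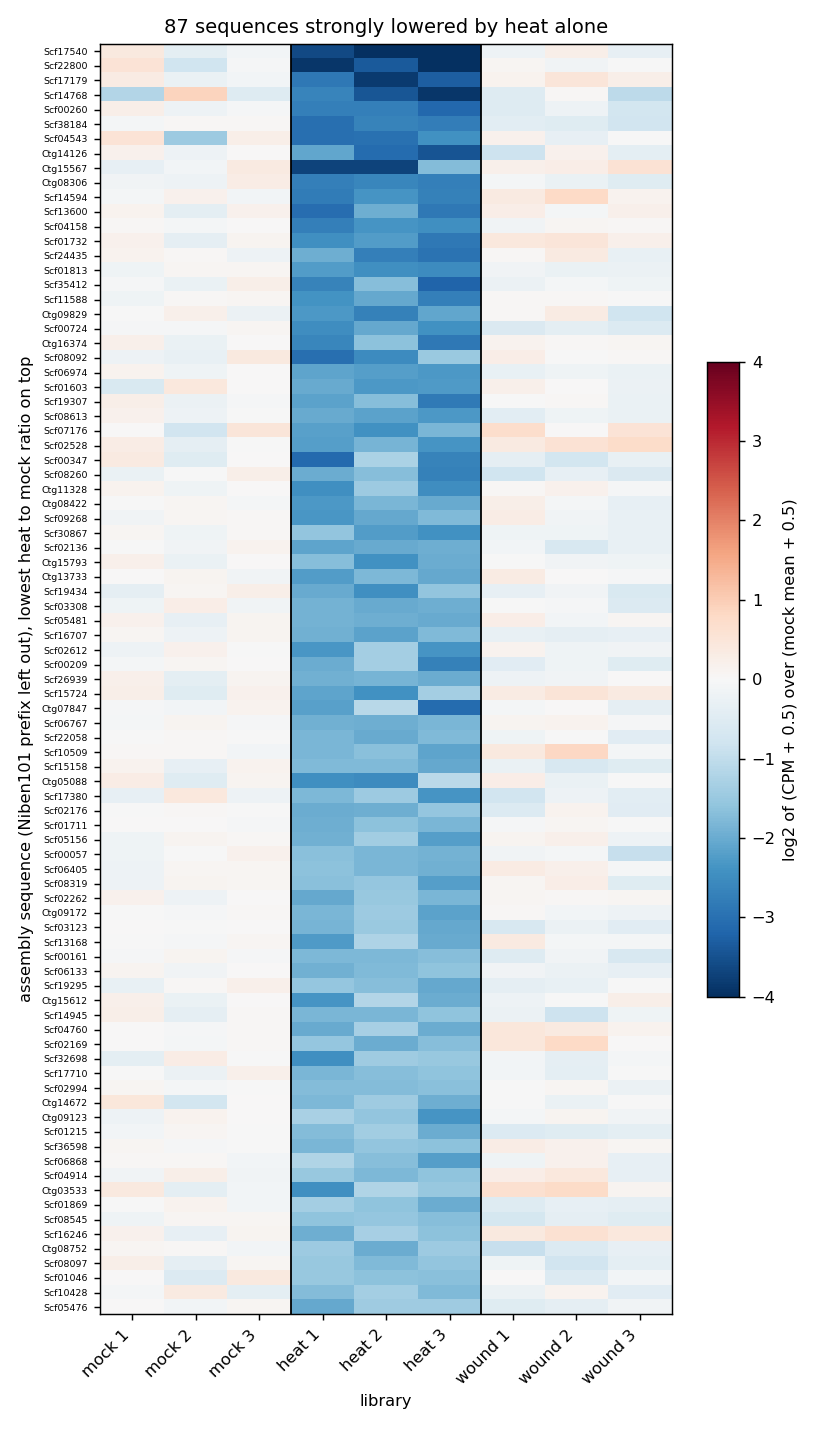
The 87 members (rows, lowest heat to mock ratio on top) in the 9 libraries (columns), coloured by the log2 of CPM + 0.5 over the mock mean + 0.5; the colour scale ends at -4 and 4. Heat columns are blue in every row, and mock and wound columns are pale in most rows, with single darker or redder cells in rows such as Scf14768, where mock libraries differed.

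By the heat to mock ratio of the rule, the lowest values came mostly in scaffolds. The constant added to each mean raises this ratio most at low levels, so falls there rank as less deep. By the fitted log2 fold change, a contig near the lower limit of level, Niben101Ctg08306, fell further (-3.72) than Niben101Scf17179 (-3.53). In Niben101Scf17540 (positions 1 to 110499) mock libraries held 186, 109.6 and 133 CPM, heat libraries 11.3, 8.04 and 7.41, and wounded libraries 123, 167 and 113. Heat thus left 6.25% of the mock mean, and mock and wounded libraries overlapped. The fitted log2 fold change of heat against mock was -3.99 ± 0.239 (SE). Niben101Scf22800 (positions 1 to 67033) had the larger fitted fall, -4.38 ± 0.395 (SE), from few reads: 11, 18 and 9 counts in the heat libraries. Its heat mean was 0.902 ± 0.421 CPM and its wounded mean 18.3 ± 1.46 CPM (SD, n = 3).

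Niben101Scf17179 (positions 1 to 153030) was at 31.5, 20.8 and 23.1 CPM in mock, 3.05, 1.29 and 2.11 after heat, and 27.5, 35.2 and 29.9 after wounding. Wounded libraries overlapped the mock range from above, and heat libraries were all far below both. Niben101Scf00260 (positions 1 to 116101) was the most abundant of the 8 lowest ratios, with 432, 321 and 356 CPM in mock, 54.7, 54.7 and 41.3 after heat, and 259, 318 and 223 after wounding. All wounded libraries were below all mock libraries here, although the ratio of 0.722 stayed within the band. Niben101Scf38184 (positions 1 to 32412) behaved likewise, at 28.9 ± 1.54 CPM in mock, 3.67 ± 0.498 after heat and 19.7 ± 2.37 after wounding (SD, n = 3).

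In the other 3 of the lowest ratios, single libraries stood apart or heat reads were few. Niben101Scf14768 (positions 1 to 68096) had 13.9, 59.5 and 22.3 CPM in mock and 4.65, 2.5 and 1.69 after heat, so that mock replicate 2 set much of its mean. Its fitted log2 fold change was -3.45, and -2.62 without that library. Niben101Scf04543 (positions 1 to 80661) had the opposite pattern, with 23.5, 5.59 and 19.0 CPM in mock and 1.53, 1.59 and 2.59 after heat. Mock replicate 2 was the lowest there and still above every heat library. The fitted log2 fold change of Scf04543 was -3.04, and -3.44 without mock replicate 2. The contig Niben101Ctg14126 (positions 1 to 2411) had 30, 11 and 9 counts after heat, and its log2 fold change of -3.20 became -3.97 without heat replicate 1.

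In all, 6 members had a mock mean at least 10 times their heat mean. Besides Scf17540, Scf22800, Scf17179 and Scf14768 these were 2 contigs near the lower limit of level. Niben101Ctg08306 (positions 1 to 848) had 4.77, 4.54 and 6.54 CPM in mock against 0.363, 0.455 and 0.361 after heat, the latter from 5, 6 and 6 counts. Niben101Ctg15567 (positions 1 to 4424), singled out after its values were seen, had no count in heat replicates 1 and 2 and 24 counts in heat replicate 3. A count of 0 allows up to 0.218 and 0.228 CPM in those libraries (3 counts, counting error only). No member was without a count in all heat libraries, and the lowest total over the 3 heat libraries was 17 counts.

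The summed level of the members was carried by 3 sequences. All 87 together held 20826 ± 2237 CPM in mock, 5156 ± 1069 after heat and 20922 ± 609.6 after wounding (SD, n = 3). As a share of all counts this was 2.17% ± 0.13 in mock, 0.493% ± 0.0905 after heat and 2.09% ± 0.0595 after wounding. Niben101Scf02262, Niben101Ctg16374 and Niben101Scf13600 made up 70.8% of the mock sum and 71% of the heat sum. The other 84 summed to 6073 ± 111 CPM in mock, 1496 ± 76.0 after heat and 5290 ± 620.5 after wounding. Both sets were left at nearly the same part of mock by heat, 24.8% for the 3 and 24.6% for the 84. The rule capped the ratio of every member, so both shares were bounded in advance. Singly, Scf02262, Ctg16374 and Scf13600 were left at 29.1%, 20.6% and 17.1% of their mock means. After wounding the 3 and the 84 stood at 106% and 87.1%.

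**Figure D3:**
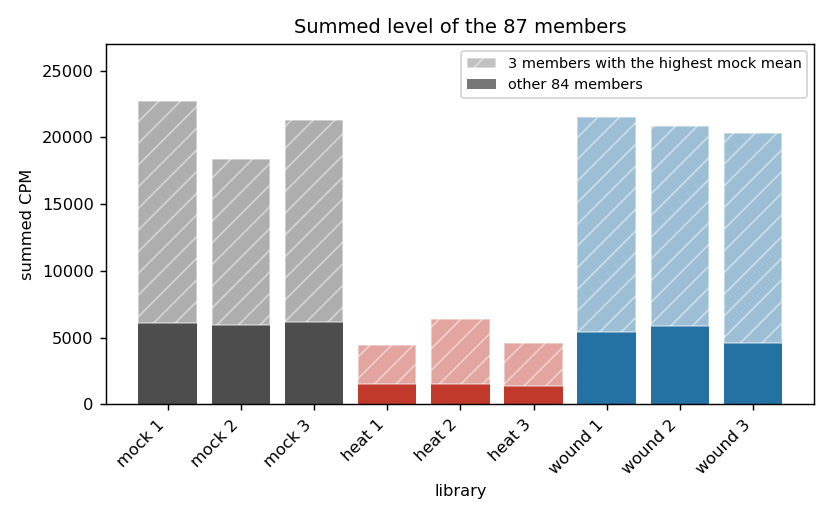
Summed CPM of the members in each library, split into the 3 members with the highest mock mean (hatched, pale) and the other 84 (solid). Mock and wounded libraries reach 18378 to 22763 CPM and heat libraries 4476 to 6388, and heat replicate 2 exceeds the other heat libraries through the hatched part.

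By reads alone, the scaffold Niben101Scf02262 (positions 1 to 423175) came first, with 9129, 7049 and 8212 CPM in mock, 1964, 2853 and 2286 after heat and 8651, 8323 and 8534 after wounding. Its wounded libraries lay within the mock range, and its heat libraries lay at 29.1% of the mock mean. The contig Niben101Ctg16374 (positions 1 to 10737) held 5311, 3809.7 and 4635 CPM in mock, 744, 1456 and 629.7 after heat, and 5061, 4761 and 4855 after wounding. Niben101Scf13600 (positions 1 to 212268) held 2244, 1560.5 and 2309 CPM in mock, 246, 525 and 278 after heat, and 2457, 1926 and 2332 after wounding. In all 3, mock replicate 2 was the lowest mock library and heat replicate 2 the highest heat library. Their fitted log2 fold changes after heat were -1.77 ± 0.148, -2.27 ± 0.266 and -2.53 ± 0.267 (SE). Without heat replicate 2 the values for Ctg16374 and Scf13600 were -2.73 and -2.95.

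The next 5 in mock level were steadier after heat. Niben101Scf00057 (positions 1 to 157941) had 304, 271 and 259 CPM after heat against 964 ± 114 in mock (SD, n = 3). Niben101Scf00161 (positions 1 to 666028), the longest member, had 829.7, 922 and 825 CPM in mock, 248, 245 and 263 after heat, and 606, 779 and 555 after wounding. Each of its wounded libraries was below each mock library. Niben101Scf08613 (positions 1 to 370123) went from 534 ± 73.0 to 121 ± 11.3 CPM and Niben101Scf03308 (positions 1 to 334651) from 320.3 ± 59.1 to 82.1 ± 3.71 (SD, n = 3). Scf00260, described above, is the fifth.

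**Figure D4:**
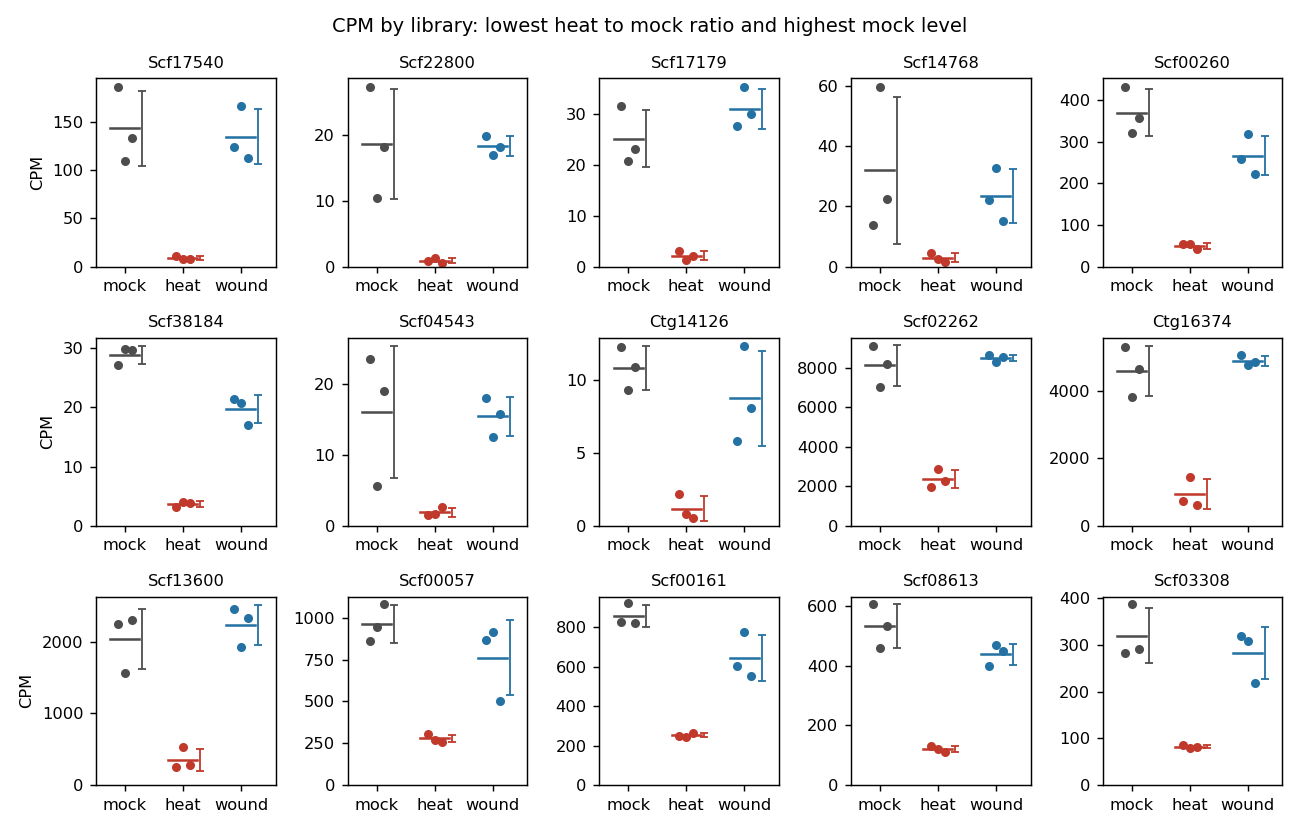
CPM in each library (points), group mean (line) and SD (bar, n = 3) for the 8 members with the lowest heat to mock ratio and the 8 with the highest mock mean, 15 sequences in all since Scf00260 is in both. Each panel has its own linear axis from 0; red heat points lie below every grey mock point in each panel, and blue wound points lie below every mock point in Scf00260, Scf38184 and Scf00161.

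Reads per length gave another order, because CPM of a whole scaffold grows with what it contains. On the deposited RPKM scale, which divides by the whole sequence length, Ctg16374 came first with 444 ± 51.3 in mock, 83.8 ± 37.9 after heat and 455 ± 11.97 after wounding (SD, n = 3). It was followed by 5 short contigs, from Niben101Ctg08752 at 58.4 to Niben101Ctg11328 at 24.5 RPKM in mock, and then by Scf02262 at 19.99 RPKM. Among these, Niben101Ctg09172 (positions 1 to 928) was at 40.9 ± 1.70 RPKM in mock, 10.6 ± 2.603 after heat and 36.7 ± 3.07 after wounding. Niben101Ctg13733 (positions 1 to 2139) was at 30.5 ± 3.89, 6.76 ± 0.925 and 31.5 ± 4.49 RPKM. RPKM of a scaffold with long unread stretches understates the level of its transcripts, so this order compares sequences and not genes.

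Contigs were frequent in the set. They made up 17 of the 87 members (19.5%), beside 350 of the 7158 sequences with a mock mean of at least 5 CPM (4.89%). Put the other way, 4.86% of such contigs and 1.03% of such scaffolds were members. The median length was 116101 nt for the members and 274108 nt for the 7158. Sequences under 2000 nt numbered 11 among the members (12.6%, beside 3.1%), and those of 200000 nt or more numbered 23 (26.4%, beside 62.4%). The members were also less abundant, with a median mock mean of 24.8 CPM beside 43.6. Length and level were not separated here.

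**Figure D5:**
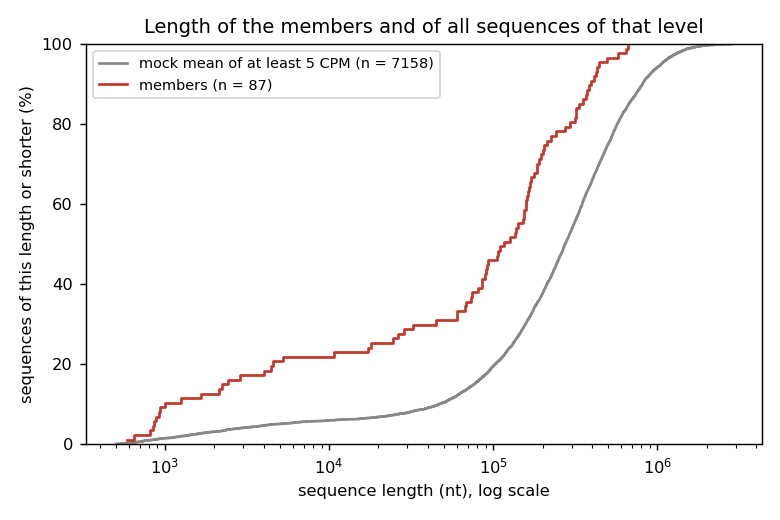
Share of sequences (%) at or below each length (nt, log axis) for the 87 members (red) and for all 7158 sequences with a mock mean of at least 5 CPM (grey). The red curve lies to the left of the grey one, with medians of 116101 and 274108 nt.

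This makeup was shared with other sequences that heat lowered as far. Contigs were 9 of the 33 whose wound ratio was 0.67 or less (27.3%) and 8 of the 25 whose wound ratio was 1.5 or more (32%). Sequences that rose as far after heat, with a ratio of at least the inverse of 0.33, held 9 contigs among 306 (2.94%), and their median length was 243324 nt. These shares carry no test.

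Contig and scaffold members had similar heat to mock ratios, within a limit that the rule set for both. The median heat to mock ratio was 0.249 for the 17 contigs and 0.267 for the 70 scaffolds, with ranges of 0.149 to 0.327 and 0.0658 to 0.329. By length, the median ratio was 0.278 under 2000 nt, 0.249 from 2000 to under 20000 nt, 0.25 from 20000 to under 200000 nt and 0.291 at 200000 nt or more. Among the longest members, Niben101Scf01046 (positions 1 to 647956) had 75.8, 51.7 and 98.4 CPM in mock and 26.1, 23.7 and 23.3 after heat. Niben101Scf02994 (positions 1 to 575233) had 141, 125 and 133 in mock and 39.3, 39.8 and 41.6 after heat, a fitted log2 fold change of -1.71 ± 0.0966 (SE). Heat libraries of both were closer together than their mock libraries were. Niben101Scf02169 (positions 1 to 490181) had 39.9 ± 1.54 CPM in mock, 11.6 ± 1.82 after heat and 54.8 ± 14.7 after wounding (SD, n = 3).

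At the short end, values rest on few counts. Niben101Ctg03533 (positions 1 to 589) had 11, 34 and 33 heat counts, Niben101Ctg05088 (positions 1 to 649) had 10, 9 and 45, and Niben101Ctg07847 (positions 1 to 812) had 33, 73 and 17. The fitted log2 fold change of Ctg05088 was -2.12, and -3.12 without heat replicate 3. That of Ctg07847 was -2.08, and -2.89 without heat replicate 2. In each of these contigs the heat libraries differed by a larger factor than the mock libraries did, yet none reached a mock library. Fewer than 100 heat counts in all were held by 20 of the 87 members.

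Mock libraries were close together for most members, though by the median less so than over the 7158. The highest mock library was under 1.5 times the lowest in 64 of 87 and at least 2 times in 6. Those counts were not made over the 7158. The median was 1.3 times beside 1.2 times over the 7158. The steadiest was Niben101Scf03123 (positions 1 to 185569) with 56.6, 55.4 and 56.5 CPM in mock, 15.03, 19.95 and 13.3 after heat, and 36.1, 47.7 and 40.5 after wounding, where every library was below mock without being called. Niben101Scf02176 (positions 1 to 60075) had 9.87, 10.3 and 9.89 in mock and 2.18, 2.2 and 3.07 after heat. Niben101Scf01711 (positions 1 to 315912) had 221, 223 and 213 in mock, 55.9, 69.5 and 61.8 after heat, and 211, 234 and 216 after wounding. That scaffold shows the pattern of the set in its plainest form, with wounded and mock libraries interleaved and heat libraries at 28.5% of the mock mean. Niben101Scf22058 (positions 1 to 106940) was as steady in mock, at 105 ± 2.95 CPM, and at 28.5 ± 2.63 after heat (SD, n = 3). Its wounded libraries held 93.9, 104 and 76.2 CPM, of which replicates 1 and 3 were below every mock library. At the other end, Scf14768, Scf04543, Scf22800 and Niben101Scf07176 (positions 1 to 152636) differed between mock libraries by 4.27, 4.21, 2.6 and 2.56 times.

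Heat replicate 2 stood apart in part of the set. It was at least 1.5 times the mean of the other heat libraries in 18 members (20.7%), beside 225 of the 7158 (3.14%). It lay as far below them, at the inverse of that factor or less, in 10 members (11.5%), beside 439 of the 7158 (6.13%). The 18 high ones were singled out after their values were seen. The contrast with the 7158 differed by level, and its cause was not tested. With a heat mean under 5 CPM, heat replicate 2 was that high in 10 of 44 members (22.7%) and in 16.7% of such sequences. From 5 to under 20 CPM it was 4 of 24 members (16.7%) and 6.03%. Among sequences with a heat mean of at least 20 CPM it was 4 of 19 members (21.1%) and 74 of 5238 sequences (1.41%). Those 4 were Ctg16374, Scf13600, Niben101Scf35412 and Niben101Scf00209. Scf35412 (positions 1 to 185299) had 17.9, 35.7 and 12.05 CPM after heat against 113, 97.3 and 138 in mock. Scf00209 (positions 1 to 195807) had 31.2, 48.2 and 19.0 after heat against 119, 131 and 126 in mock. Mock replicate 2 was the lowest mock library in 12 of the 18 and in 48 of all 87 members (55.2%), beside 37.9% of the 7158. Applied without heat and mock replicates 2, a setting chosen after seeing the data, the rule gave 118 sequences, 80 of them members, and the summed heat to mock ratio was 0.222.

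Wounding was bounded by the rule, so the values within those bounds are a description. The wound to mock ratio had a median of 0.941 and was below 1 in 56 members and above 1 in 31. The same split was not counted over the 7158. Heat and wound ratios share the mock mean as divisor, so the split is not read as an effect of wounding. All wounded libraries were below all mock libraries in 16 members (18.4%, beside 18.6% of the 7158) and above them in 6 (6.9%, beside 21.8%). In edgeR's test with Benjamini-Hochberg adjustment, 4 members were called lower after wounding (4.6%, beside 5.02% of all tested) and none higher (beside 9.86%). At an unadjusted p under 0.05 in edgeR's test, 14 of 87 were lower and 5 of 87 higher, beside 12.1% and 16.4% of all tested. DESeq2 called 9 of 87 lower and 1 of 87 higher, beside 8% and 11% of the sequences it gave an adjusted p. Without mock replicate 3 edgeR called none of the 87, beside 8.89% of all tested in either direction. Unadjusted, 9 of 87 were lower and 4 of 87 higher there, beside 9.75% and 13.9%. Of the 87, edgeR called 1 without wound replicate 1 (beside 8.32%), 8 without heat replicate 2 (beside 17.5%) and 9 without heat replicate 3 (beside 15.5%).

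The 4 called members were Scf38184, Scf00161, Ctg08752 and Niben101Scf00724. Ctg08752 (positions 1 to 887) was closest to the lower bound, with 51.9, 50.7 and 46.1 CPM in mock and 25.7, 33.9 and 39.6 after wounding, a log2 fold change of -0.59 ± 0.174 (SE). Scf00724 (positions 1 to 199885) had 73.0, 73.9 and 80.4 CPM in mock, 13.0, 18.0 and 13.7 after heat, and 51.1, 57.5 and 51.8 after wounding. In these 4, every wounded library stood between the mock and the heat range. Niben101Scf08260 (positions 1 to 59787) had a like ratio of 0.68, with 26.5 ± 4.79 CPM in mock and 17.9 ± 3.16 after wounding (SD, n = 3), and was not called.

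Toward the upper bound, Niben101Scf02528 (positions 1 to 85615) had 27.0, 16.9 and 21.7 CPM in mock, 4.36, 5.69 and 3.86 after heat, and 28.5, 32.9 and 36.8 after wounding. Ctg03533 and Niben101Scf16246 (positions 1 to 164095) came next with wound to mock ratios of 1.44 and 1.39. Scf16246 had 12.7, 8.84 and 12.2 CPM in mock, 2.54, 4.17 and 3.25 after heat, and 14.96, 17.3 and 15.2 after wounding. Wounded libraries of Scf02528 and Scf16246 were above all mock libraries, and neither sequence was called after wounding.

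Heat and wounded libraries did not overlap in any member. Every heat library was below every wounded library in all 87, beside 34.1% of the 7158, and all 87 were called lower after heat than after wounding, beside 25% of all tested. The fitted log2 difference of heat from wounding had a median of -1.97 and ran from -4.35 to -1.04. The rule nearly fixes this count too, so it is a description.

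At the edge of the rule, members and other sequences were alike. The last inside were Niben101Scf05476, Niben101Scf10428, Scf01046, Niben101Scf08097 and Ctg08752, with ratios of 0.327 to 0.329. Just outside were Niben101Scf21165, Niben101Scf00572, Niben101Scf21643, Niben101Scf14564 and Niben101Scf30065, with ratios of 0.333 to 0.336. Scf05476 (positions 1 to 411099) had 26.8, 24.9 and 28.5 CPM in mock and 6.03, 9.56 and 9.76 after heat. Scf21165 (positions 1 to 69283) had 65.2, 43.9 and 51.3 CPM in mock and 16.3, 22.2 and 13.9 after heat. The limit divides a continuous range of falls.

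The fall was also read in single libraries left out of the choice, set against libraries that the rule had used. The rule was applied 9 times without 1 library each, giving 83 to 101 sequences, and the library left out was then examined. Left-out heat libraries were below every mock library in 90 of 90, 100 of 101 and 84 of 84 sequences for replicates 1 to 3, beside 39.7% to 40.4% of the 7158. Their median ratios to the mock mean were 0.26, 0.306 and 0.247, and 70, 59 and 69 of those sequences were at or below 0.33. Left-out mock libraries were above every heat library in 82 of 83, 96 of 96 and 83 of 83, beside 39.6% to 40.1% of the 7158. Left-out wounded libraries were above every heat library in all 88, 83 and 85, beside 42.0% to 43.3% of the 7158, and within the wound band in 77, 68 and 73. The separation from heat was seen in nearly all of these sequences, while the exact size of the fall and the wound band held in fewer. Libraries on the other side of each comparison had been used by the rule, so these counts are a description. Of the 87 members, 53 were chosen in every one of the 9 repeats.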

How the data were processed

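The authors deposited 1 table with 4 values per library for each scaffold or contig; per the file headers these are total counts, RPKM, TPM and CPM. The labels and headers name no aligner or counter. The deposited TPM sum to the same total in each library and were not used; the deposited RPKM divide by the whole sequence length. The authors' CPM columns are a scaled signal, the count times 1 constant per library, with sums of 909726 to 1068742. The members and their rule were set with earlier results of these data known.

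Counts were tested with edgeR 4.0.16 in R 4.3.3: filterByExpr on the groups, TMM factors (0.928 to 1.09), and 1 quasi-likelihood model of the 3 groups over 9 libraries. P-values were adjusted over 9645 sequences by the Benjamini-Hochberg method, threshold 0.05. DESeq2 1.42.0, other factors, no filter, a length minimum of 2000 nt, a replicate block and leaving out each library were alternatives, as were other settings of the rule. SE is the log2 fold change over the square root of F. Named members were taken by rank: the 8 lowest heat ratios, the 8 highest mock means, the 5 nearest each side of the limit, the 4 longest and shortest, the 4 most and least spread in mock, and the 3 at each end of the wound ratio. Any other named sequence was chosen after its values were seen. Planned gene and marker lists were not applied, since no sequence is paired with a gene.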

Additional observations from a re-analysis of the deposited data

How the results depend on the processing

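Membership followed the rule's limits. A heat limit of 0.25 gave 37 sequences with a summed heat to mock ratio of 0.192 (0.248 for the 87), and a narrower wound band gave 55 sequences. TMM factors, library totals and upper-quartile factors gave 84, 101 and 112, of which 84, 83 and 83 were members. Leaving out 1 library gave 83 to 101. All 87 members were called lower after heat, and lower than after wounding, wherever all were tested. The 34 named members kept their call and direction in all 539 values from 16 other settings. Nothing follows from these calls, which are nearly fixed in advance since the rule used the same libraries. The count called after wounding was 8 of 87 with upper-quartile factors (beside 16.2% of all tested) and 8 of 87 with library totals (beside 13.6%). It was 14 of 87 without a filter (beside 11.7%) and 10 of 87 with DESeq2 (beside 19%). With 1 library left out it was 0 to 9 of 87, beside 8.32% to 17.5%. The cause was not tested. The median log2 fold change after heat was -2.21 with upper-quartile factors and -2.16 with library totals, where the median of all tested sequences moved to -0.17 and -0.12. No clear pairing of samples by replicate number was seen. A correlation of deviations above 0.1 was found in 1 of 9 same-number pairs. For 2 of 9 libraries the highest correlation was with its own number. These values cannot show that the samples were unpaired. Under the replicate block, all 87 stayed lower after heat, beside 20.7% of all tested. There, 3 of 87 were called after wounding, beside 11.4%. The summed ratio without the 3 most abundant members was 0.246, and without heat and mock replicates 2 together the rule gave 118 sequences; both were chosen after seeing the data. Depth limits the 20 members with under 100 heat counts.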
